A study of Mus musculus with 14 samples.

Results

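The genes described are 10 mouse genes of vitamin A uptake and retinoid metabolism, read by gene name from the count table: Isx, Scarb1, Bco1, Bco2, Rbp2, Lrat, Rdh7, Aldh1a1, Aldh1a7 and Dhrs3. They are 10 of 54532 genes in the table, and all 10 were among the 13846 genes that passed the filter on low counts and were tested. RNA was sequenced from the scraped ileum mucosa of male mice fed a high fat diet (HFD, 60% of energy from fat) for 15 weeks. The paper's methods start the diet at an age of 7 to 8 weeks. A figure legend of the paper, on its phenotype experiments, gives an older age and a chow period before the HFD. Both groups carried NCoR1 flox/flox alleles, in which loxP sites flank part of the gene of the nuclear receptor corepressor NCoR1. The 7 IKO mice also carried Cre recombinase under the villin promoter, which is active in intestinal epithelial cells, so other cells of the mucosa kept the floxed gene. The 7 WT mice were littermates without Cre, and each mouse gave 1 sample. The comparison of IKO with WT asks which ileal transcripts differ when the intestinal epithelium lacks NCoR1.

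Vitamin A enters enterocytes either as dietary carotenoids, which are taken up at the brush border and cleaved to retinal, or as retinol released from retinyl esters in the lumen. Inside the cell retinol is held by a binding protein and mostly esterified for export in chylomicrons, while a smaller share is oxidized through retinal to retinoic acid, the ligand of the RAR nuclear receptors. Retinoic acid induces the homeobox repressor ISX, which lowers transcription of the carotenoid receptor gene Scarb1 and the cleavage enzyme gene Bco1, so that uptake falls when supply is high.

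Among the 10 genes, Isx, Aldh1a1 and Aldh1a7 rose and Lrat fell in the IKO mucosa, and the other 6 did not pass the test. The called genes are the carotenoid uptake repressor, both aldehyde dehydrogenase genes of the set and the retinol esterification enzyme. The fold changes were 2.24 for Isx, 3.38 for Aldh1a1 and 3.01 for Aldh1a7, and Lrat was 3.14-fold lower (n = 7 mice in each group). Genes were called at an adjusted p under 0.05 (edgeR's quasi-likelihood test, adjusted by Benjamini and Hochberg's method over all genes tested), which called 8.67% of those genes, 4.38% as higher and 4.28% as lower in IKO. Against this background 4 of 10 retinoid genes were called, 3 higher and 1 lower. In the same 4 genes the WT and IKO values did not overlap, which held for 3.10% of all genes tested. The 10 genes were chosen with results of these data known, so these counts describe the set and are no test of it.

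The targeted gene Ncor1 was at 135 ± 31.3 normalized counts (CPM, counts scaled to a common library size) in WT and 50.6 ± 10.97 CPM in IKO (mean ± SD, n = 7 each), with no overlap and a log2 fold change of -1.41 ± 0.18 (SE, edgeR adjusted p = 0.00051). Total counts were 14749669 to 21557468 per sample. The share of mitochondrially encoded counts was 23.9% in WT 3, 50.3% in IKO 4 and 3.49% to 10.3% in the others, and without both mice the same 4 retinoid genes were called. All 8 enterocyte markers were measured and none was called, nor reached an unadjusted p under 0.05, in edgeR, and DESeq2 and limma called none either, with summed levels of 16437 to 56211 CPM in WT and 35735 to 62012 CPM in IKO. Smooth muscle markers, which mark tissue below the mucosa, summed to 10855 CPM in WT 4, 5.08 to 62.4 CPM in the other 6 WT mice, and 4.53 to 796 CPM in IKO, where IKO 1 and IKO 2 (392 CPM) were highest, and none of the 6 was called by edgeR, DESeq2 or limma, nor at an unadjusted p under 0.05. No marker of stem cells, B and plasma cells or the distal ileum was called by edgeR. All 4 stem cell markers had log2 fold changes below 0 (3 at an unadjusted p under 0.05, 1 called by DESeq2 and 1 by limma-voom). Their sums were 57.7 to 179 CPM in WT and 33.2 to 108 CPM in IKO. All 5 B and plasma cell markers were below 0 too (3 at an unadjusted p under 0.05, 0 called by DESeq2), with sums of 111 to 707 CPM in WT and 84.7 to 425 CPM in IKO. Of the 5 distal markers Fgf15 alone, at -1.75 (edgeR adjusted p = 0.0616), reached an unadjusted p under 0.05, and DESeq2 called 1. Among 6 goblet cell, 4 endothelium and 4 T cell markers tested, edgeR called none, while DESeq2 and limma-voom each called 1 in each list. DESeq2 also called 1 of 4 enteroendocrine markers, which edgeR and limma-voom did not. Log2 fold changes were also below 0 for all tested smooth muscle (6), macrophage and dendritic cell (6), T cell (4) and enteroendocrine (4) markers. So were 3 of 4 endothelium markers. Above 0 were 6 of 8 enterocyte, 5 of 6 goblet cell, 3 of 4 Paneth cell and 3 of 5 distal markers. No macrophage and dendritic cell marker was called by any tool, and 1 had an unadjusted p under 0.05. The median enterocyte sum was 36461 CPM in WT and 53729 CPM in IKO. The part of these cells in the results was not tested. Because whole mucosa was sequenced, a change in the number of cells of a type and a change in RNA per cell cannot be told apart.

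**Figure D1:**
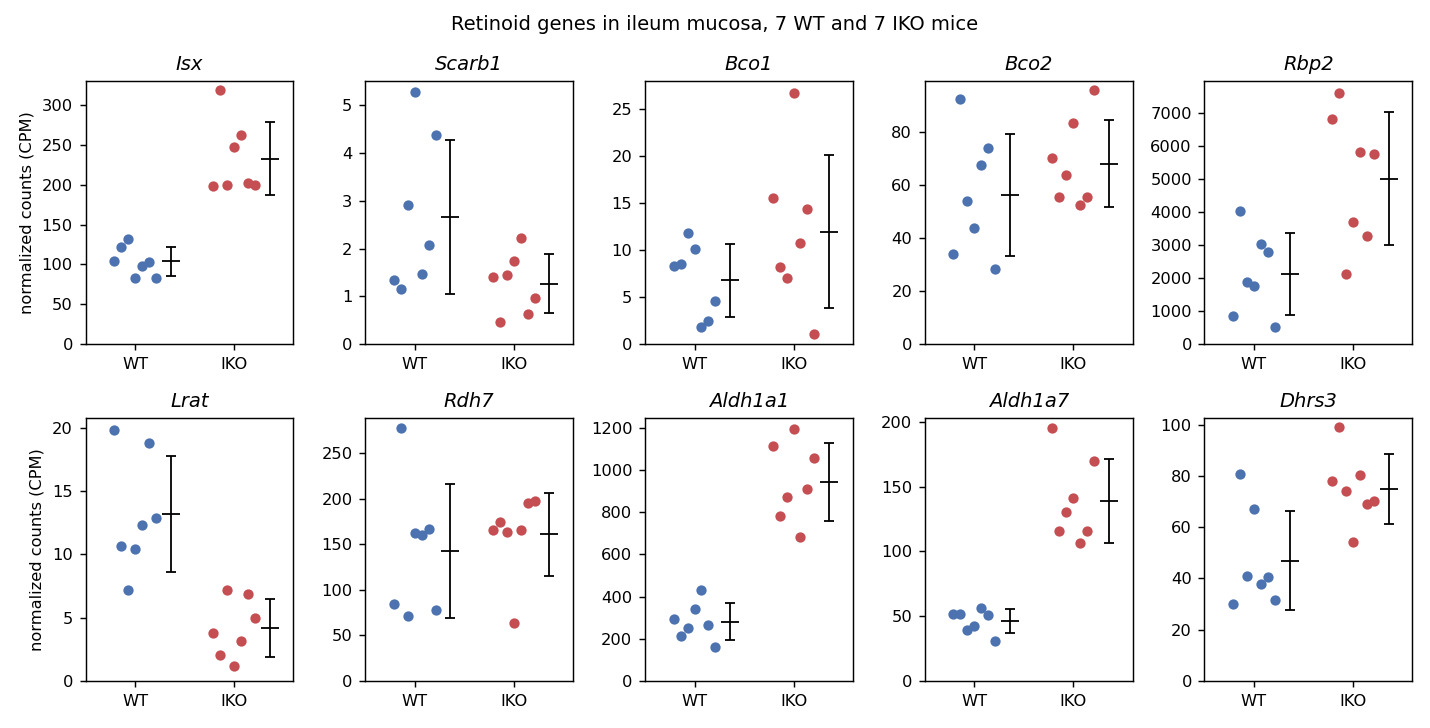
Normalized counts (CPM, linear axis from 0) of the 10 retinoid genes in each mouse, WT in blue and IKO in red, with the mean and SD of 7 mice beside each group. Every IKO point lies above every WT point for Isx, Aldh1a1 and Aldh1a7 and below every WT point for Lrat, and the groups overlap for the other 6 genes.

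The short region before the start site is shown for 4 genes because NCoR1 acts through nuclear receptors, which bind the half-site AGGTCA, often as a direct repeat. The 250 bases before the start site come from RefSeq promoters on GRCm38.p6, which held 9 of the 10 genes and not Scarb1. They are printed 5′ to 3′ along the gene's strand, with half-sites of either strand in capitals (TGACCT is the half-site read on the opposite strand). Isx and Lrat are shown as called genes, Bco1 and Rbp2 as the genes with a half-site at their only listed start.
Isx (chr8:74872924-74873173, + strand): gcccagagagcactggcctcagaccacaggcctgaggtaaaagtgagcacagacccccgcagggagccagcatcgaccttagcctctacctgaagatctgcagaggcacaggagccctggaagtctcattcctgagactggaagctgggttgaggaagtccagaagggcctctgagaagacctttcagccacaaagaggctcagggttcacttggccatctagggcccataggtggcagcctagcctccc
Lrat (chr3:82903975-82904224, - strand): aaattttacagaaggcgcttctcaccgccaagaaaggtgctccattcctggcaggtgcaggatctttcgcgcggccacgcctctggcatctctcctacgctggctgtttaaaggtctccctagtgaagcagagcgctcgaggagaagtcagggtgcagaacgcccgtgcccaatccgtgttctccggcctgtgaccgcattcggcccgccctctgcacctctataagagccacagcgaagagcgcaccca
Bco1 (chr8:117095615-117095864, + strand): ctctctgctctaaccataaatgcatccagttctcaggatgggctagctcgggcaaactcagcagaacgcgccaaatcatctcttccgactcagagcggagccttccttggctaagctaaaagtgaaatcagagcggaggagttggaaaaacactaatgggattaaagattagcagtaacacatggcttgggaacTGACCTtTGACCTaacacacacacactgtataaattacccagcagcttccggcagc
Rbp2 (chr9:98490287-98490536, + strand): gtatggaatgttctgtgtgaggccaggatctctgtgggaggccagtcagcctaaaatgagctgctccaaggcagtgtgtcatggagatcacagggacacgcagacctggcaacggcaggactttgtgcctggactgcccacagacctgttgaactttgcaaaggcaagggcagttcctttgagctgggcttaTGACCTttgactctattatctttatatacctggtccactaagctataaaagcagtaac
The Bco1 window held 2 half-sites with 1 base between them, from -56 to -44 relative to the start site on the minus strand, ahead of a TATAAA motif at -28. This arrangement, AGGTCANAGGTCA, is one that dimers of a PPAR with RXR are known to bind, but its letters do not single out a receptor. Binding was not tested. The arrangement occurred on either strand in 11 of 32851 mouse promoter windows (0.0335%). The Rbp2 window held 1 half-site from -58 to -53 and TATAAA motifs at -38 and -15, the former on the minus strand. Only exact letters were searched. In the printed Rbp2 sequence 1 base and the letters tgactc follow the half-site, a near match that the search did not count. The start site of this Rbp2 window lies 4422 bases inside the gene as the count table draws it. A single half-site is common, present in 4607 of the 32851 windows. None was found in the windows of the called genes Isx, Lrat, Aldh1a1 and Aldh1a7, which says only that these 6 letters are not in those 250 bases.

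Isx, the intestine-specific homeobox repressor (ENSMUSG00000031621, chr8:74873173-74893506 on mm10, + strand), was about doubled. In WT it ranged from 83.1 to 132 CPM with a median of 103 CPM, and in IKO from 199 to 318 CPM with a median of 202 CPM. The lowest IKO mouse was thus well above the highest WT mouse, and the spread within each genotype was narrow. The mean was 104 ± 18.3 CPM in WT and 233 ± 45.9 CPM in IKO, a log2 fold change of 1.17 ± 0.17 (SE, edgeR adjusted p = 0.00114). An exact two-sided permutation test of the mean log2 CPM gave p = 0.000583, the smallest that 7 against 7 mice allow.

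The genes that ISX is known to repress did not pass the test. Scarb1, the scavenger receptor that takes up carotenoids and lipids (ENSMUSG00000037936, chr5:125277087-125341094, - strand), was scarce, with 8 to 124 counts per sample. It ranged from 1.16 to 5.27 CPM in WT, median 2.09, and from 0.471 to 2.22 CPM in IKO, median 1.40, so the groups overlapped and 6 of 7 IKO mice were under the WT median. The log2 fold change was -1.07 ± 0.43 (95% interval -1.98 to -0.17, edgeR adjusted p = 0.111), and the exact permutation p, unadjusted, was 0.0443.

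Bco1, which cleaves beta-carotene into retinal (ENSMUSG00000031845, chr8:117095854-117133720, + strand), also varied widely. Its levels ran from 1.83 to 11.8 CPM in WT, median 8.33, and from 1.08 to 26.7 CPM in IKO, median 10.7, and only 4 of 7 IKO mice were above the WT median. The log2 fold change of 0.81 ± 0.53 had a 95% interval from -0.31 to 1.93 (edgeR adjusted p = 0.305), which leaves room for a change in either direction. The direct repeat in its promoter window thus stands beside no called change of its transcript.

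Bco2, the mitochondrial enzyme that cleaves carotenoids off centre (ENSMUSG00000032066, chr9:50533087-50555181, - strand), had a higher level per length than Bco1, with 26.1 FPKM against 2.61 FPKM in WT. It ranged from 28.3 to 92.5 CPM in WT, median 54.1, and from 52.6 to 96.0 CPM in IKO, median 63.7. The WT range covered nearly all IKO mice, and the log2 fold change was 0.27 ± 0.25 (95% interval -0.25 to 0.80, edgeR adjusted p = 0.470). Of the wider uptake list the remaining gene was Cd36, a fatty acid and carotenoid transporter, with a log2 fold change of 0.96 (edgeR adjusted p = 0.292).

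Within a genotype, the relation of Isx to its known targets was examined across the 7 mice in log2 CPM, as part of 6 relations tested with exact two-sided permutation tests and Benjamini-Hochberg adjustment. Isx against Scarb1 gave r = -0.57 in WT (rho = -0.57, permutation p = 0.198 for r and 0.2 for rho, adjusted p = 0.396 and 0.4) and r = -0.19 in IKO (rho = -0.07, permutation p = 0.696 and 0.906, adjusted p = 0.696 and 0.964). Without the 2 mice farthest from the median of Isx, r was -0.86 in WT and 0.51 in IKO, so the sign in IKO rested on IKO 2 and IKO 5. Isx against Bco1 gave r = 0.31 in WT (rho = 0.46, permutation p = 0.476 and 0.302, adjusted p = 0.696 and 0.454) and r = 0.23 in IKO (rho = 0.04, permutation p = 0.626 and 0.964, adjusted p = 0.696 and 0.964). With the 2 farthest mice left out these were 0.00025 and 0.52. No relation of Isx to either gene passed the adjustment.

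Rbp2 encodes the cellular retinol-binding protein of enterocytes (ENSMUSG00000032454, chr9:98486115-98509781, + strand) and was by far the most abundant of the 10 genes. Per length, its mean level was 2165 ± 1270 FPKM in WT and 5227 ± 2090 FPKM in IKO (SD, n = 7 each). In CPM it ranged from 519 to 4020 in WT, median 1892, and from 2118 to 7608 in IKO, median 5749. All 7 IKO mice were above the WT median, yet IKO 3, at 2118 CPM, was below WT 2, WT 5 and WT 6. The log2 fold change of 1.24 ± 0.42 (95% interval 0.35 to 2.12) missed the threshold (edgeR adjusted p = 0.0713), while DESeq2 called it (adjusted p = 0.0153), as did edgeR without WT 2 (adjusted p = 0.0427). The exact permutation p, unadjusted, was 0.00991.

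The WT mice with the fewest enterocyte transcripts also had the least Rbp2. No IKO mouse had sums that low (35735 to 62012 CPM), so the same could not be looked for in IKO. WT 7 and WT 1 had the lowest summed enterocyte markers of all mice, 16437 and 26468 CPM, and the lowest Rbp2, 519 and 847 CPM. WT 2 had the highest sum of the WT mice, 56211 CPM, and the highest Rbp2. In IKO the highest Rbp2, 7608 CPM in IKO 2, stood beside a sum of 40585 CPM, below the IKO median of 53729 CPM. The lowest, 2118 CPM in IKO 3, stood beside a sum of 53975 CPM. The relation was not tested. Relative to the enterocyte sum of the same mouse, the Rbp2 level was 0.93 higher in IKO on the log2 scale (exact permutation p = 0.0146, unadjusted), and the groups still overlapped. The 8 markers of the sum were Vil1, Fabp2, Alpi, Sis, Anpep, Slc5a1, Cdh1 and Epcam. The largest were Fabp2 (17270 CPM in WT, 22476 CPM in IKO) and Anpep (8361 and 13602 CPM). The paper lists Fabp2 among PPARα-regulated genes of the IKO ileum. Whether the sum itself responds to genotype, apart from cell number, was not tested. Of 7 markers of the proximal small intestine, where Rbp2 is known to be highest, 5 were tested and only Fabp1 was called, with a log2 fold change of 2.17 (edgeR adjusted p = 0.0277). Their sum was 308 to 2999 CPM in WT and 1652 to 8218 CPM in IKO, and Fabp1 carried the higher IKO sum, with 802 ± 611 CPM in WT and 3607 ± 2302 CPM in IKO. Lct, the lactase gene, had 799 ± 590 CPM in WT and 398 ± 225 CPM in IKO, and Gata4, the defining factor, was at 51.9 CPM in both. Neither untested marker was at 0 throughout. The part of these genes in the Rbp2 difference was not tested.

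**Figure D2:**
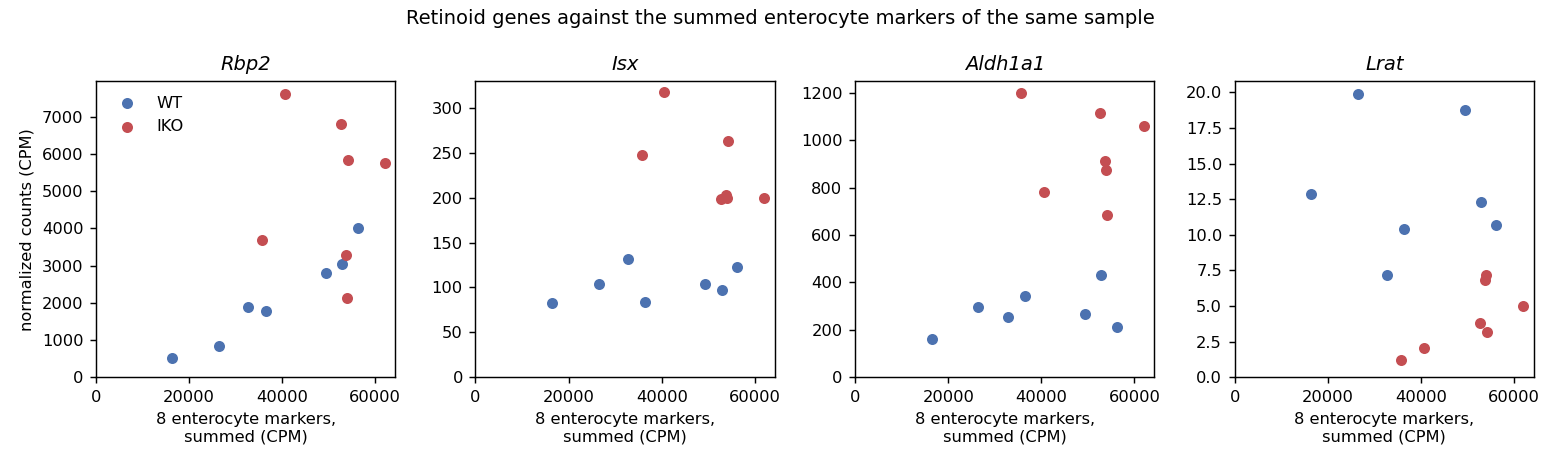
Normalized counts (CPM) of Rbp2, Isx, Aldh1a1 and Lrat against the summed CPM of 8 enterocyte markers in the same mouse, WT in blue and IKO in red, both axes linear from 0. The WT mice with the lowest enterocyte sums had the lowest Rbp2. The IKO mice show no such order, but their sums, 35735 to 62012 CPM, do not reach the lowest WT sums. The IKO points of Aldh1a1 lie above and those of Lrat below all WT points.

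None of the 6 other binding and transport genes tested was called by edgeR, DESeq2 or limma, and 3 had an unadjusted edgeR p under 0.05. Their log2 fold changes ran from -1.11 to 0.83, with the retinol-binding protein gene Rbp7 at the upper end (5.59 CPM in WT, 9.94 CPM in IKO, edgeR adjusted p = 0.163). The other 4 of this list did not pass the filter on low counts, and of these Rbp3 was at 0 in every sample. Among the 4, the retinol receptor gene Stra6 had 2.07 ± 2.77 CPM in WT and 0.499 ± 0.428 CPM in IKO, with at most 142 counts in a sample.

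Lrat, the enzyme that transfers a fatty acid from lecithin to retinol (ENSMUSG00000028003, chr3:82892579-82903973, - strand), was the only one of the 10 that fell. It ranged from 7.20 to 19.9 CPM in WT, median 12.3, and from 1.20 to 7.15 CPM in IKO, median 3.80. The groups did not overlap but nearly met, since WT 3 at 7.20 CPM was just above IKO 3 at 7.15 CPM. The mean was 13.2 ± 4.59 CPM in WT and 4.17 ± 2.28 CPM in IKO, and the log2 fold change was -1.65 ± 0.36 (edgeR adjusted p = 0.0135, exact permutation p = 0.000583). IKO 4, with the highest mitochondrial share, had the lowest value, 11 counts, and without it the log2 fold change was -1.49 (edgeR adjusted p = 0.0166).

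Lrat was also lower relative to the enterocyte sum, by a log2 difference of -2.24, again with no overlap (exact permutation p = 0.000583). Retinoid-storing fibroblasts are known to express Lrat, and fibroblast markers summed to 6.28 to 354 CPM in WT, highest in WT 4, and to 8.32 to 44.7 CPM in IKO. Of the 6 fibroblast markers 5 were tested and none was called by edgeR, though all 5 log2 fold changes were below 0, 4 had an unadjusted p under 0.05 and DESeq2 called 1. None of the 6 was at 0 in all samples, and their part in the Lrat difference was not tested. WT 4 had 10.4 CPM of Lrat, under the WT median, and without it the log2 fold change was -1.70 (edgeR adjusted p = 0.0189). Dgat1, an acyltransferase of triglyceride synthesis that can also esterify retinol, had 843 ± 387 CPM in WT and 929 ± 318 CPM in IKO (log2 fold change 0.14, edgeR adjusted p = 0.796).

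The hydrolysis of retinyl esters was represented by 4 genes outside the set, of which 1 rose and 1 fell. Plb1, the brush border phospholipase that is known as a retinyl ester hydrolase, fell from 942 ± 549 CPM in WT to 203 ± 140 CPM in IKO (log2 fold change -2.21 ± 0.50, edgeR adjusted p = 0.0175), with overlapping groups. Pnliprp2, a lipase related to pancreatic lipase, rose from 22.8 ± 9.14 to 59.5 ± 24.5 CPM (log2 fold change 1.38 ± 0.27, edgeR adjusted p = 0.00928), also with overlap. Of 6 markers of exocrine pancreas only Cela1 was high enough to test, and it was higher in IKO (1.19 on the log2 scale, edgeR adjusted p = 0.00438). Their sum was 4.95 to 9.24 CPM in WT and 7.65 to 21.9 CPM in IKO, with at most 33 counts of any marker other than Cela1 in any sample, and the part of such cells was not tested. Lipe and Lpl, a hormone-sensitive and a lipoprotein lipase, were not called, with log2 fold changes of 0.27 and -1.36 (edgeR adjusted p = 0.583 and 0.249).

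Rdh7, a short-chain dehydrogenase that oxidizes retinol and steroids (ENSMUSG00000040134, chr10:127884028-127888817, - strand), did not change detectably. It ranged from 71.1 to 278 CPM in WT, median 160, and from 63.3 to 197 CPM in IKO, median 166. In IKO 6 of 7 mice lay close together, between 163 and 197 CPM, and IKO 4 was far below them. The log2 fold change was 0.17 ± 0.31 (95% interval -0.49 to 0.83, edgeR adjusted p = 0.742), and 0.31 without IKO 4 (edgeR adjusted p = 0.476). With the counts of its close relatives added, it was 0.25.

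The other retinol-oxidizing genes that were called were all higher in IKO. Of 10 such genes tested outside the set, 4 were called higher and none lower, beside 4.38% and 4.28% of all genes tested. The list was chosen with earlier results known, so this count is no test of it. Adh4, the class II alcohol dehydrogenase, rose from 2.41 ± 2.34 to 26.02 ± 13.4 CPM with no overlap (log2 fold change 3.43 ± 0.54, edgeR adjusted p = 0.00269). Adh1, the class I enzyme that oxidizes ethanol and retinol, rose from 49.4 ± 24.9 to 219 ± 98.4 CPM (2.15 ± 0.37, edgeR adjusted p = 0.00448). Adh5, better known as the glutathione-dependent formaldehyde dehydrogenase, rose from 34.3 ± 3.07 to 51.6 ± 6.43 CPM, and here too every IKO mouse was above every WT mouse (0.59 ± 0.12, edgeR adjusted p = 0.0103). Dhrs9 rose from 0.625 ± 0.333 to 2.05 ± 1.07 CPM (1.70 ± 0.48, edgeR adjusted p = 0.0410), a call kept in only 12 of 21 alternatives. The 6 genes not called ran from -1.17 to 1.10. Rdh9 was at the upper end (12.9 CPM in WT, 27.7 CPM in IKO, edgeR adjusted p = 0.115). Rdh16f2 was at the lower end (2.81 CPM in WT, 1.23 CPM in IKO, edgeR adjusted p = 0.151).

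Dhrs3 encodes the reductase that turns retinal back into retinol (ENSMUSG00000066026, chr4:144892827-144928209, + strand) and is itself induced by retinoic acid. It ranged from 30.1 to 80.8 CPM in WT, median 40.6, and from 54.2 to 99.2 CPM in IKO, median 74.0. All IKO mice were above the WT median, but WT 2 and WT 4 lay among them. The log2 fold change was 0.68 ± 0.22 (95% interval 0.20 to 1.15, edgeR adjusted p = 0.0678). It passed in 5 of 24 alternatives, including DESeq2 (adjusted p = 0.0260) and edgeR without WT 2 (adjusted p = 0.0179), and relative to the enterocyte sum the log2 difference was 0.27 (exact permutation p = 0.284).

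Among 6 other genes of retinal reduction and saturation, Dhrs4, an NADPH-dependent retinal reductase, rose from 69.6 ± 13.1 to 126 ± 24.6 CPM without overlap (log2 fold change 0.86 ± 0.16, edgeR adjusted p = 0.00804). Retsat, which saturates retinol to dihydroretinol, had 130 ± 67.1 CPM in WT and 390 ± 168 CPM in IKO and narrowly missed the threshold (1.58 ± 0.48, edgeR adjusted p = 0.0505). Of these 6 genes edgeR called 1, Dhrs4, while DESeq2 and limma-voom each called 2.

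Aldh1a1 oxidizes retinal to retinoic acid, and Aldh1a7 is its closest paralog. The genes lie near each other on chromosome 19, Aldh1a1 on the + strand (ENSMUSG00000053279, chr19:20492715-20643462) and Aldh1a7 on the - strand (ENSMUSG00000024747, chr19:20692953-20727562). Their coding sequences in GENCODE M21 are both 1503 bases long and identical at 1377 positions (91.62%). To show how reads of the copies can be told apart, 150 bases of exon 9 of 13 on GRCm38, the length of 1 read, are printed in the sense direction with the 25 positions that differ in capitals.
Aldh1a1 (chr19:20630666-20630815, + strand): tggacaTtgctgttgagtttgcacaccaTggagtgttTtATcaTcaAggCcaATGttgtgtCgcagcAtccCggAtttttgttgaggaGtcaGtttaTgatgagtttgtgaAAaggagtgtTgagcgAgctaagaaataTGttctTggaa
Aldh1a7 (chr19:20708185-20708334, - strand): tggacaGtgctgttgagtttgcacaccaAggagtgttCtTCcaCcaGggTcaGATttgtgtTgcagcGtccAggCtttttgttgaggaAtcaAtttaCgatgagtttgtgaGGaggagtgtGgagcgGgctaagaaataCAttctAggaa
No 150-base window was the same in both coding sequences, and windows differed at 2 to 27 positions with a median of 11. The longest identical run was 100 bases.

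Aldh1a1 was several times higher in IKO. It ranged from 162 to 431 CPM in WT, median 267, and from 683 to 1197 CPM in IKO, median 912. Every IKO mouse was above every WT mouse by a wide margin. The mean rose from 280 ± 88.0 to 946 ± 185 CPM, a log2 fold change of 1.76 ± 0.22 (95% interval 1.28 to 2.23, edgeR adjusted p = 0.000439, exact permutation p = 0.000583). Aldh1a7 also separated the genotypes, with 30.9 to 56.4 CPM in WT, median 51.1, and 106 to 195 CPM in IKO, median 130. Its mean rose from 46.3 ± 9.002 to 139 ± 32.5 CPM, and the log2 fold change was 1.59 ± 0.18 (95% interval 1.21 to 1.97, edgeR adjusted p = 0.000225, exact permutation p = 0.000583). The sum of both genes changed by 1.73 on the log2 scale (edgeR adjusted p = 0.000397), a value that does not depend on how reads were shared between the copies.

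Across mice of 1 genotype the levels of the paralogs gave r = 0.80 in IKO, which did not pass the adjustment over the 6 relations (rho = 0.86, exact permutation p = 0.0333 for r and 0.0238 for rho, adjusted p = 0.2 and 0.143), and r was 0.92 without IKO 4 and IKO 5. In WT r was 0.66 (rho = 0.64, exact permutation p = 0.114 and 0.139, adjusted p = 0.341 and 0.4) and -0.34 without WT 5 and WT 7, so the sign in WT rested on those mice. Relative to the enterocyte sum, Aldh1a1 was 1.32 higher in IKO on the log2 scale with no overlap (exact permutation p = 0.000583), and Aldh1a7 was 1.11 higher with overlap (exact permutation p = 0.00117). Isx on this scale was 0.69 higher, with overlapping groups (exact permutation p = 0.0338), a smaller difference than in CPM.

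The other genes tested from the list of retinal oxidation were not called. Aldh1a2 was at 2.75 ± 4.06 CPM in WT and 1.41 ± 0.956 CPM in IKO, and Aldh1a3 at 4.30 ± 1.51 and 2.65 ± 1.13 CPM. Their log2 fold changes were -0.98 and -0.70 (edgeR adjusted p = 0.342 and 0.150).

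Of the 4 receptor genes tested, the retinoic acid receptors Rara and Rarg and the partners Rxra and Rxrb, none was called by edgeR, 1 had an unadjusted p under 0.05 and DESeq2 called 1. Their log2 fold changes ran from -0.15 to 0.37 with Rxra highest (edgeR adjusted p = 0.130). The breakdown enzymes Cyp26a1 and Cyp26c1 were too low to test, and Cyp26b1 had a log2 fold change of 0.40 (edgeR adjusted p = 0.667). A list of 10 known retinoic acid targets, which includes Isx, Lrat and Dhrs3, held 6 tested genes, and Isx alone rose and Lrat alone fell. Both are among the 10 genes chosen with results known, so this share of 2 in 6 is not read against the 8.67% of all genes. The other 3 tested ran from -1.11 to 0.40, with the transglutaminase gene Tgm2 at 0.14 (edgeR adjusted p = 0.568).

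Over all pathway lists 51 further genes were named, 36 were tested, and 6 rose and 1 fell, which is 19.4% called beside 8.67% of all genes. The lists were chosen with earlier results of these data known, so these shares describe the lists and are no test of the pathway. The median log2 fold change of the 36 was 0.14, beside -0.09 over all genes tested. The groups did not overlap for 3 of the 36, beside 3.10% of all genes tested.

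**Figure D3:**
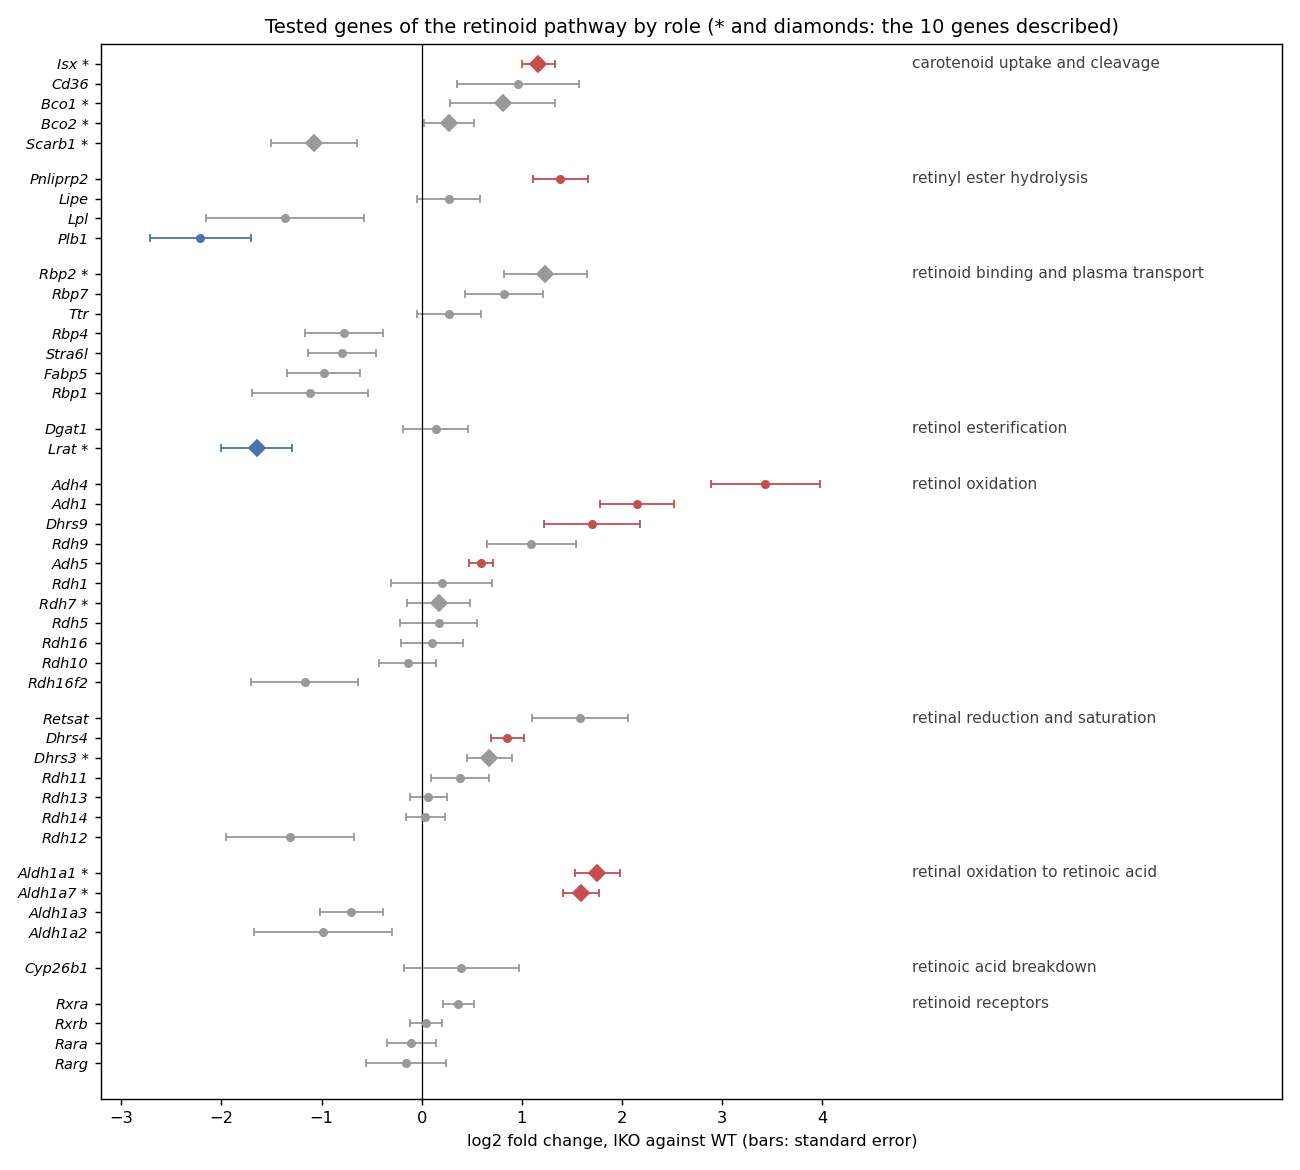
Log2 fold changes of IKO against WT with standard errors from edgeR (n = 7 mice in each group) for the tested genes of the retinoid pathway lists, grouped by role. Diamonds mark the 10 genes described, red marks genes called higher, blue genes called lower and grey genes not called. The red points lie mainly in the lists of retinol oxidation (4) and retinal oxidation (2, Aldh1a1 and its paralog Aldh1a7). The blue points, of retinyl ester hydrolysis and retinol esterification, are Plb1 and Lrat. Aldh1a7 stands in the list of retinal oxidation. Enzyme activity was not measured, so the place of Aldh1a7 in that list does not show that its enzyme oxidizes retinal.

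Per length, the order of the levels in WT was Rbp2 (2165 FPKM), Rdh7 (83.4), Isx (56.5), Aldh1a1 (55.5), Bco2 (26.1), Aldh1a7 (21.9), Dhrs3 (15.7), Bco1 (2.61), Lrat (2.41) and Scarb1 (0.305), each a mean over 7 mice. Rdh7 (SD 43.0), Isx (9.79) and Aldh1a1 (17.7) differed by less than their spread, as did Bco2 (10.7), Aldh1a7 (4.42) and Dhrs3 (6.41), and Bco1 (1.47) and Lrat (0.859). In IKO Aldh1a1 took the second place at 192 ± 37.8 FPKM, followed by Isx at 130 ± 26.1, Rdh7 at 96.0 ± 26.9 and Aldh1a7 at 67.6 ± 15.6 FPKM. Bco2 at 32.3 ± 7.92 and Dhrs3 at 25.7 ± 4.61 FPKM came next and differed by less than the larger SD, and Bco1 at 4.71 ± 3.22 FPKM, Lrat at 0.779 ± 0.422 FPKM and Scarb1 at 0.150 ± 0.0744 FPKM were lowest in both groups.

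The 4 calls held in each alternative fit tried. The scale relative to the enterocyte sum is not among these fits. On it the groups overlapped for Isx (0.69, exact permutation p = 0.0338, unadjusted) and Aldh1a7 (1.11, p = 0.00117). Isx, Lrat and Aldh1a7 were called in 24 of 24 and Aldh1a1 in 25 of 25 settings, with log2 fold changes of 1.08 to 1.23, -1.85 to -0.93, 1.49 to 1.65 and 1.64 to 1.90. Rbp2 was called in 3 of 24 and Dhrs3 in 5 of 24, and Scarb1, Bco1, Bco2 and Rdh7 in none, where the tools were edgeR, DESeq2 and limma. Each of these 6 kept its sign in those fits, and only relative to the enterocyte sum did the differences of Bco2 (-0.12) and Rdh7 (-0.22) fall below 0.

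**Figure D4:**
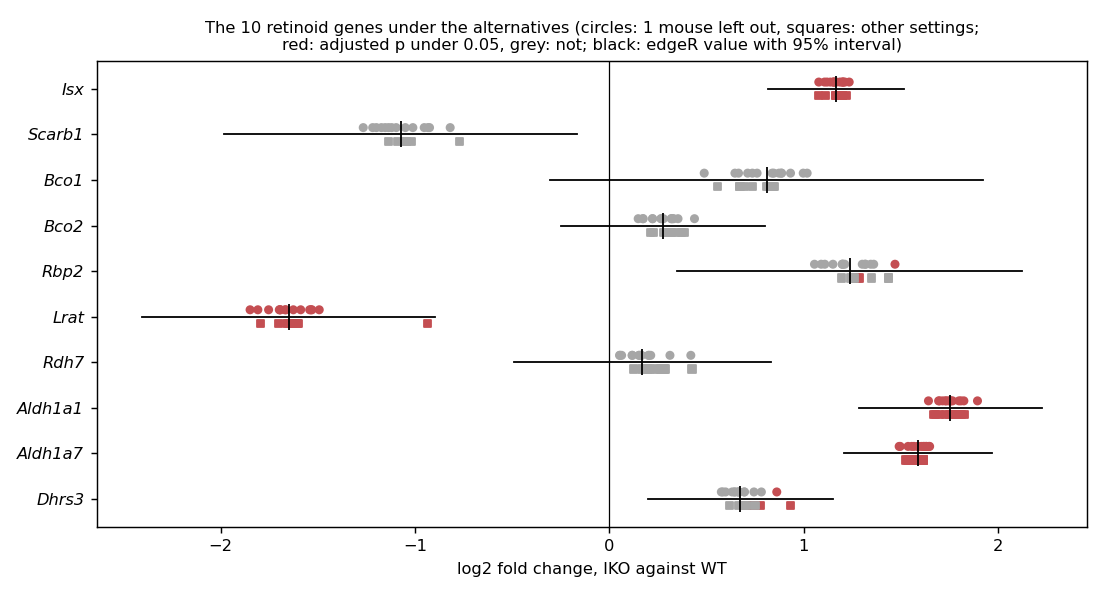
Log2 fold changes of IKO against WT for the 10 retinoid genes under the alternatives: circles leave out 1 mouse, squares are other settings, red marks an adjusted p under 0.05, and black ticks and lines give the edgeR value with its 95% interval. Isx, Lrat, Aldh1a1 and Aldh1a7 are red throughout, and the smallest Lrat change, -0.93, comes from limma on log2(FPKM + 1).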

How the data were processed

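RNA of the ileum mucosa was sequenced from 7 WT and 7 IKO mice, and genotypes were taken from the sample labels. Per the study's methods and the submitters' processing notes, the authors sequenced paired 150-base reads, aligned them to mm10 with HISAT2 2.0.5 and counted them per gene with featureCounts 1.5.0-p3. Strand setting, annotation release and filters are not given in the sources used here. The deposited counts are whole and not normalized. The FPKM deposited by the authors equal these counts per gene length, scaled by DESeq2 size factors, as checked on the values.

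Counts were filtered (filterByExpr), normalized (TMM) and compared with edgeR 4.0.16 in R 4.3.3, genotype as the only term, with Benjamini-Hochberg adjustment over 13846 genes. SE is the log2 fold change divided by the square root of F. CPM use TMM library sizes, with a prior count of 2 on the log2 scale. Permutation tests cover all 3432 divisions into 7 and 7. The fit was tested on simulated data. Alternatives were DESeq2 1.42.0, limma 3.58.1, other normalization and filters, summed paralogs, a replicate block and left-out mice.

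The genes, lists and tests were chosen with earlier results of these data known. All 10 genes are named, as are every called pathway gene and the gene of the highest mean CPM among the other genes of each list. Further genes (such as Lipe, Lpl, Rdh9, Aldh1a2 and single markers) were named after their values were seen. The scale relative to enterocyte markers was also added after seeing the data. Nothing in the labels ties samples to a batch. Scarb1, Bco1 and Lrat had the fewest counts, and gene coordinates are those of the count table.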

Additional observations from a re-analysis of the deposited data

Results flagged for a closer look

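In groups of 7 mice, a value was singled out when its gap to the nearest other mouse exceeded 0.568 of the group's range (Dixon's test). Of 24 groups examined 4 passed, where chance gives about 1.2. Bco1 was low in IKO 7, at 1.084 CPM against 7.038 CPM in the next mouse (gap 0.575 of the range on the log2 scale), and without IKO 7 its log2 fold change was 1.02 (edgeR adjusted p = 0.144). Rdh7 was low in IKO 4, at 63.29 CPM against 163.1 CPM in the next mouse (gap 0.833). IKO 4 also had the highest share of mitochondrially encoded counts, 50.29% against 6.095% in the next IKO mouse (gap 0.944). WT 3 had 23.91% against 10.34% in the next WT mouse (gap 0.676). Their part in the Bco1 and Rdh7 values was not tested.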

How the results depend on the processing

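The number of genes called among all genes tested moved with the setting, from 1200 (607 higher, 593 lower) to 2484 with DESeq2 (1186 and 1298), 1889 with limma-voom and sample quality weights (993 and 896), 648 without WT 3 and IKO 4 (426 and 222) and 508 without a filter (346 and 162). The cause was not tested. With 1 mouse left out it ranged from 515 to 1371, and it fell by over 1.5 times without WT 4 (746), WT 7 (600), IKO 1 (526), IKO 2 (728), IKO 5 (515) or IKO 7 (789). RLE normalization gave 689 higher and 531 lower, at least 10 counts in every sample 530 and 689, and limma on log2(FPKM + 1) 708 and 328. The retinoid genes called numbered 4 to 6 of 10, and the other pathway genes called 5 to 9, in all settings run. With the sample number as a replicate block, 362 genes were called (226 higher, 136 lower), the same 4 retinoid genes among them, while Plb1 and Adh5 were lost. Deviations of same-numbered mice correlated at -0.305 to 0.232, above 0.1 for 1 of 7 numbers, and 1 of 7 WT mice correlated best with its own number, so the numbers were not taken as pairs. Without the 2 farthest mice the sign changed for Isx with Scarb1 in IKO (r from -0.19 to 0.51) and for Aldh1a1 with Aldh1a7 in WT (0.66 to -0.34). Relative to the enterocyte markers the differences of Bco2 (-0.12) and Rdh7 (-0.22) changed sign, neither past the test (exact permutation p = 0.527 and 0.336), and on that scale Scarb1 was -1.42 (p = 0.0274) and Bco1 0.17 (p = 0.837). Scarb1, Lrat and Bco1 rest on few counts, with as few as 8, 11 and 18 in a sample.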
